A study of Lithospermum officinale with 3 samples.

Results

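In the medicinal herb *Lithospermum officinale* (Boraginaceae), 91 unigenes were highest in stem, lower in leaf and lowest in root. They were drawn from 77047 unigenes, which are sequences assembled from RNA reads without a genome, so a unigene is not necessarily a whole gene. RNA from stem, leaf and root of 2-year-old plants grown outdoors was sequenced as 1 library per tissue, and the labels name no treatment. The stem, leaf and root libraries held 4469828, 3490670 and 10045956 expected counts, that is, the read numbers that the program RSEM assigned to unigenes. The labels do not state if the tissues were taken from a single plant or if plants were pooled. With 1 library per tissue no value has a replicate error, no test between tissues was possible, and the 95% intervals below cover counting error only.

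Members were chosen from the measured counts. The 100 unigenes with the most counts over the 3 libraries were set aside, because they held 43.5% of the stem library, 59.0% of the leaf library and 56.7% of the root library. Each remaining count was divided by the sum of its library outside those 100, which was 2525988 in stem, 1432056 in leaf and 4351427 in root, and is called the scaled count here. A member had at least 100 counts in stem, a scaled count in stem at least 2 times and under 4 times that in leaf, and a scaled count in leaf at least 4 times that in root, with a count of 0 read as 0.5. The order of the tissues and the sizes of both steps are therefore given by the choice, and are described without a test.

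In flowering plants the stem carries water-conducting and food-conducting tissue, dividing cambium and, while young, a green cortex, and it shares photosynthesis and an aerial surface with the leaf. The root has conducting tissue as well, but it is not green, and in several plants of this family it carries red naphthoquinone pigments at its surface. Transcripts present in the green shoot and scarce in root therefore include many of photosynthesis and of the aerial epidermis, while those strongest in stem include many of wood and fibre walls. The files pair no unigene ID with a gene name or a sequence, so none of the 91 could be assigned to such a group, and they are named by ID. The tissue labels could not be checked against marker genes for the same reason.

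Both steps were combined by 91 (1.55%) of the unigenes that had enough counts in stem. Of the 5883 unigenes outside the 100 most counted with at least 100 counts in stem, 379 (6.44%) had a stem to leaf ratio of 2 to 4. Of these 379, 91 (24.0%) also had leaf at least 4 times root, as had 1041 of all 5883. Among the other 288, with the same step from leaf to stem, root was above leaf in 226 (78.5%) and above stem in 127 (44.1%). Their median levels were 26.1 TPM in stem, 7.54 TPM in leaf and 25.8 TPM in root, where TPM is the deposited transcript level per unigene length, scaled to the same sum in each library. Seen from the other step, the 91 made up 8.74% of the 1041 with leaf at least 4 times root. Over all 5883, the share with that stem to leaf ratio was 6.44%. On the scale used, the stem-led grade was thus a minority of the 1041. Other classes were set on ratios between the same libraries. A further 579 unigenes were level within 2-fold in stem and leaf, and 41 had stem 4 or more times leaf. The class graded leaf, stem, root held 230 with at least 100 counts in leaf. In each of these classes the lower of stem and leaf was at least 4 times root. The sizes of the classes depend on their windows, which are not equally wide, and on the scale.

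**Figure D1:**
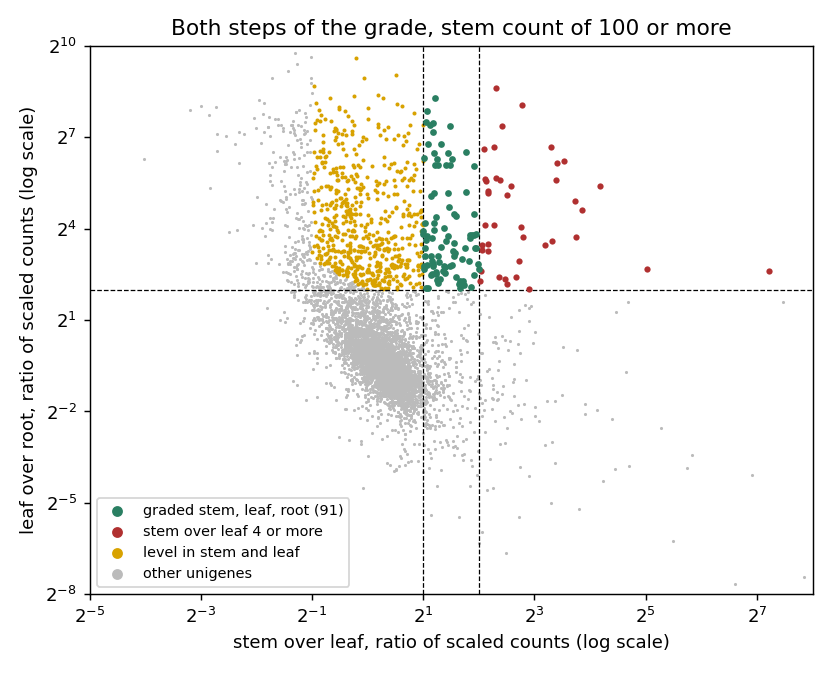
Each point is 1 unigene with at least 100 counts in stem, outside the 100 most counted, placed by its stem to leaf ratio (horizontal, log scale) and its leaf to root ratio (vertical, log scale) of scaled counts, with a count of 0 drawn as 0.5. Dashed lines mark ratios of 2 and 4 for stem to leaf and 4 for leaf to root. The 91 members fill the band between the 579 level unigenes and the 41 with the steeper stem step, and most of the 5883 unigenes lie below the horizontal line.

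The members were moderate in stem, low in leaf and scarce in root. Their median level was 29.8 TPM in stem, 8.47 TPM in leaf and 1.31 TPM in root, against 23.0, 14.1 and 20.6 TPM in the other 5792 unigenes with at least 100 counts in stem. The range over members was 9.89 to 1092 TPM in stem, 2.18 to 308 TPM in leaf and 0 to 75.7 TPM in root. A level of 100 TPM was reached by 19 members in stem, 6 in leaf and 0 in root. Among all 5883 unigenes with at least 100 stem counts, members included, it was reached by 493, 308 and 601. In root, 56 of the 91 reached 1 TPM and 12 reached 5 TPM, against 5634 and 5064 of the 5883, a difference that the choice required. By rank of TPM among all 77047 unigenes, the median member stood at 2812 in stem, 8043 in leaf and 56156 in root. Many unigenes of low rank in root held only a few counts, so ranks there are coarse.

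**Figure D2:**
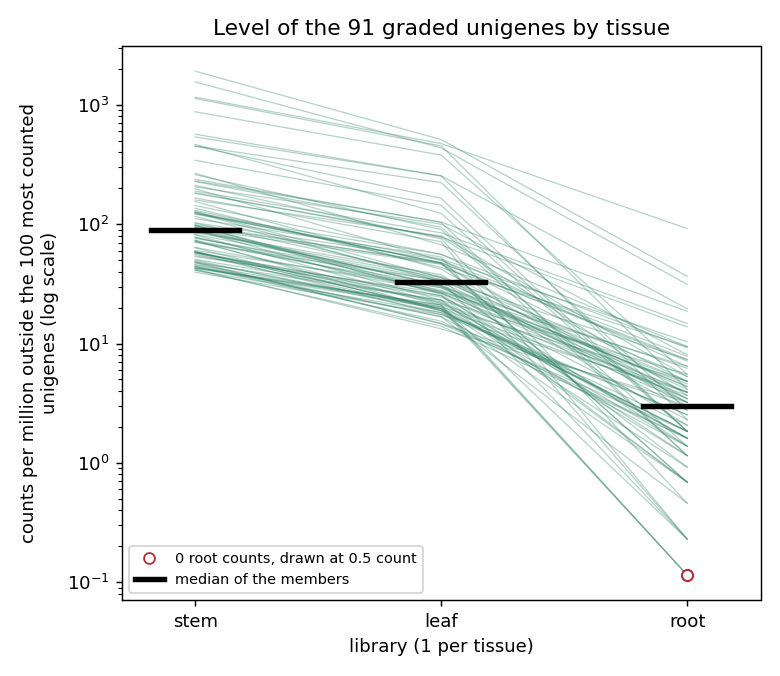
Each line is 1 of the 91 members, with its scaled count in CPM outside the 100 most counted unigenes (vertical, log scale) in the stem, leaf and root libraries (horizontal). Black bars are medians over the members, at 89.9 in stem, 32.8 in leaf and 2.99 in root, and red circles are the 3 members with 0 counts in root. The lines run close together from stem to leaf and spread out in root.

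The step from leaf to stem was narrow by construction and the step from root to leaf was open-ended. The median stem to leaf ratio of scaled counts was 2.56, with quartiles of 2.25 and 3.08. There were 45 members from 2 to below 2.5, 22 from 2.5 to below 3 and 24 from 3 to below 4, so members crowded toward the lower limit. The median leaf to root ratio was 11.5, with quartiles of 6.83 and 34.9, and the highest was 310. It was 4 to below 8 in 34 members, 8 to below 16 in 25, 16 to below 64 in 12 and 64 or more in 20. The median stem to root ratio was 29.0, and the lowest was 8.61. Over all unigenes with at least 10 counts in the pair of libraries, the median ratios were 1.09 for stem to leaf, 0.844 for leaf to root and 0.973 for stem to root.

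Low counts of the members in leaf and root limited how well single members were placed. The root library was the largest, and the choice itself required low levels in root. The median member had 227 stem counts, 47 leaf counts and 13 root counts. Root counts were 0 in 3 members, 1 to below 4 in 11, 4 to below 10 in 24, 10 to below 100 in 50 and 100 or more in 3. The whole counting interval of stem to leaf lay above 2 in 38 of the 91, a call made for 1.73% of all 34745 unigenes tested and for 4.39% of the 5883 with at least 100 counts in stem. These 38 were 41.8% of the members and 6.32% of the 601 unigenes so called. In the remaining 53 members the interval reached 2 or below, and in 34 members it reached 4 or above. In only 13 members did it lie wholly between 2 and 4.

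For the leaf to root step, which has no upper limit in the choice, the whole interval lay above 4 in 69 of the 91 members, a call made for 7.22% of all 38203 unigenes tested and for 14.9% of the 5883. The interval of stem to root lay above 4 in all 91, a call made for 6.29% of 40723 unigenes and for 14.6% of the 5883. Both limits of the choice, 2 for stem to leaf and 4 for leaf to root, were passed by the whole interval in 31 members. All unigenes that passed both numbered 63, so these 31 were 34.1% of the members and 49.2% of those 63. The members were chosen on these same ratios, and the shares depend on the distance of each ratio from its limit as well as on the counts, so nothing is read from them.

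**Figure D3:**
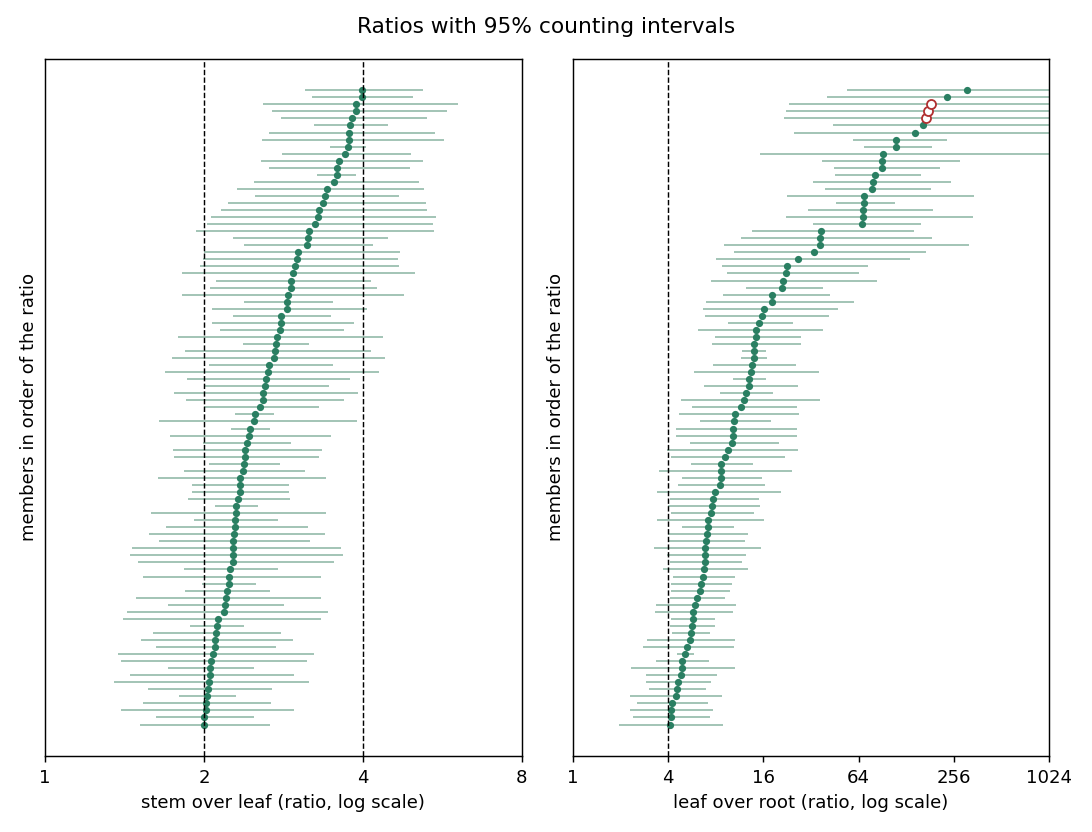
Points are the stem to leaf ratio (left) and the leaf to root ratio (right) of scaled counts for each of the 91 members in order of that ratio, on log axes, with exact 95% counting intervals as lines. Dashed lines mark 2 and 4 on the left and 4 on the right, and red circles are the 3 members with 0 root counts, whose intervals have no upper end. On the left 53 intervals reach 2 or below, and on the right 22 reach 4 or below.

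The counts were concentrated in a few members. Together the 91 held 43776 stem counts, 9204 leaf counts and 2148 root counts. These were 0.979% of the stem library (exact binomial interval 0.970% to 0.989%), 0.264% of the leaf library (0.258% to 0.269%) and 0.0214% of the root library (0.0205% to 0.0223%). The 10 members most counted in stem held 52.5% of what the 91 had in stem, 50.9% in leaf and 40.04% in root. The first 2 alone held 20.01% of the stem counts.

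The pair most counted in stem had nearly the same profile. Unigene53023 (1409 nt) had 4833 stem counts, 732 leaf counts and 159 root counts, which is 828 TPM, 155 TPM and 18.1 TPM. Unigene39816 (1190 nt) had 3926 stem counts, 624 leaf counts and 136 root counts, which is 817 TPM, 161 TPM and 18.8 TPM. Stem was the highest and root the lowest library for each of them. The stem to leaf ratio was 3.74 (95% interval 3.46 to 4.05) for Unigene53023 and 3.57 (3.28 to 3.89) for Unigene39816. Their leaf to root ratios were 13.99 (11.8 to 16.7) and 13.94 (11.6 to 16.9). The intervals overlapped for stem to leaf and for leaf to root. Both unigenes were chosen on these ratios, and the choice confined stem to leaf to a narrow window, so nothing is read from the overlap. Their sequences were not used here, and whether they are separate genes or pieces of 1 transcript was not tested.

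The members of highest stem TPM differed from each other in root. Unigene30533 (726 nt) had 2851 stem counts, 648 leaf counts and 18 root counts, at 1092 TPM, 308 TPM and 4.58 TPM. Unigene70265 (917 nt) had 2926 stem counts, 677 leaf counts and 400 root counts, at 833 TPM, 239 TPM and 75.7 TPM. Both were highest in stem, and their stem to leaf ratios were 2.49 (2.29 to 2.72) for Unigene30533 and 2.45 (2.25 to 2.67) for Unigene70265. The leaf to root ratio was 109 (68.7 to 186) for Unigene30533 and 5.14 (4.54 to 5.83) for Unigene70265. These last intervals did not overlap, so abundant members with the same step within the shoot stood at opposite ends of the step to root. Unigene70265 also had the highest root count of all members, followed by Unigene53023.

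Unigene30533 and Unigene15295 had the largest lower bounds for stem over root. Unigene30533 was 273-fold higher in stem than in root (172 to 461). Unigene15295, at 3508 nt the longest member, had 418 stem counts, 102 leaf counts and 1 root counts, or 26.5 TPM, 8.02 TPM and 0.04 TPM. Its stem to root ratio was 720 with an interval of 129 to 28509, which shows how little a single root count fixes the fold. The next longest member, Unigene950 (3415 nt), had 185 stem counts, 27 leaf counts and 8 root counts, with a stem to leaf ratio of 3.88 (2.59 to 6.05) and a stem to root ratio of 39.8 (19.8 to 93.6).

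The 3 members with 0 counts in root were all weakly counted, with 108 to 116 counts in stem and 28 to 30 in leaf. A count of 0 in root allows up to 3 counts there. With root set to 3 counts leaf was at least 28.4-fold, 29.4-fold and 30.4-fold higher in them, and the exact intervals of the ratios, which also cover the counting error of leaf, began at 21.6, 22.4 and 23.2. With these 3 at their bound the median leaf to root ratio of the members stayed at 11.5 and the upper quartile was 28.9.

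On either side of each limit of the choice stood unigenes whose counting intervals overlapped. Unigene62234 was inside with 100 stem counts, 25 leaf counts and 11 root counts, and Unigene59694 outside with 99, 26 and 18. For stem to leaf at 2, Unigene59363 was inside at 2.00 (1.52 to 2.67) and Unigene41425 outside at 1.99 (1.86 to 2.13). Unigene41425 had 3951 stem counts, 1127 leaf counts and 46 root counts, so an abundant unigene missed the choice by its second decimal. For stem to leaf at 4, Unigene4675 was inside at 3.99 (3.11 to 5.19) and Unigene50754 outside at 4.07 (3.12 to 5.38). For leaf to root at 4, Unigene40051 was inside at 4.12 (1.96 to 8.89) and Unigene59695 outside at 3.84 (2.02 to 7.41).

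Unigene length was not used in the choice. The members had a median length of 1478 nt (quartiles 1075.5 and 2007 nt, range 483 to 3508 nt), against 1862.5 nt (1265 and 2678 nt, up to 12400 nt) in the other 5792 unigenes with at least 100 counts in stem. Of the members, 56.0% were over 1000 and up to 2000 nt long and 3.30% over 3000 and up to 5000 nt, compared with 41.4% and 15.7% of the others. No member exceeded 5000 nt, while 196 of the 5883 did. Shorter length was not particular to the stem-led grade: the median was 1596.5 nt in the 950 other unigenes with leaf at least 4 times root, 1496 nt in the class with the steeper stem step, 1667 nt in the level class and 1268.5 nt in the class graded leaf, stem, root. In the 288 unigenes with the same stem to leaf step but without the step to root it was 1752 nt.

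The length difference also varied with the count. Among unigenes with 100 to below 200 stem counts the median length was 1504 nt in 39 members and 1925 nt in 3475 others. From 200 to below 400 stem counts it was 1906.5 nt in 28 members and 1852 nt in 1513 others, the opposite order. At 400 or more it was 1213.5 nt in 24 members and 1659 nt in 804 others. Within the 91, length had a Spearman's rho of 0.080 with the stem to leaf ratio and -0.060 with the leaf to root ratio. Unigenes are not replicates, and no p-value belongs to these comparisons.

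**Figure D4:**
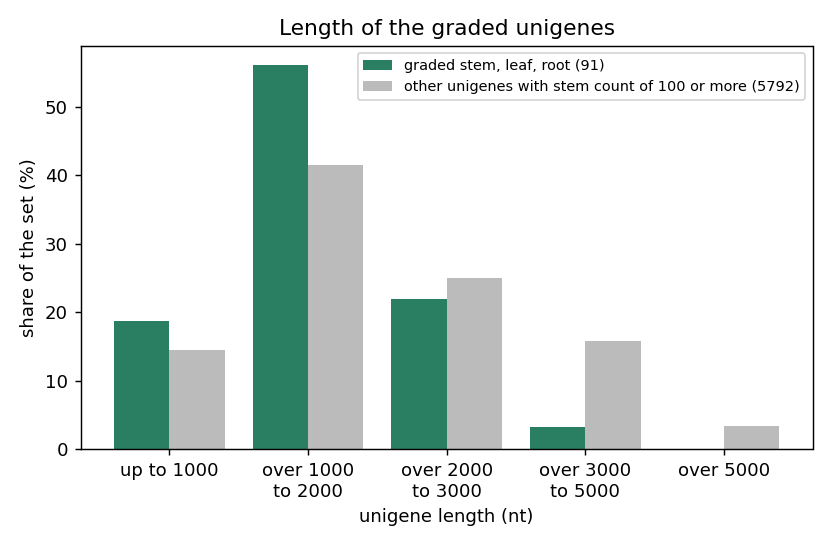
Bars give the share (%, vertical) of the 91 members (left bar) and of the other 5792 unigenes with at least 100 counts in stem (right bar) in 5 classes of unigene length in nt (horizontal). Members are more frequent between 1000 and 2000 nt, at 56.0% against 41.4%, and there is none over 5000 nt.

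The numbering of the unigenes, which the choice did not use, placed some members side by side, and the shares that follow are a description. Neighbours were unigenes of adjacent number with at least 100 counts in stem, outside the 100 most counted. Each neighbour was counted separately for every unigene it was adjacent to. Of the 42 neighbours of members so counted, 8 (19.0%) were members. Among the 2524 neighbours of all 5883 unigenes, counted in the same way, 42 (1.66%) were members. A further 12 (28.6%) of the members' neighbours were level in stem and leaf and 3 (7.14%) had the steeper stem step, against 11.4% and 0.634% of all neighbours. None was graded leaf, stem, root, a class that held 2.34% of all neighbours. Over all 1262 adjacent pairs the log2 ratios of the partners had a Spearman's rho of 0.32 for stem to leaf and 0.40 for leaf to root, where each pair shares its 3 libraries. Over the 38 pairs that held a member, and so a unigene chosen for its ratios, rho was -0.19 and 0.059. The partners' leaf to root ratios then differed by a median of 2.85 on the log2 scale, against 0.65 over all pairs. How the numbers were assigned is not given in the sources used here, so whether such neighbours are pieces or variants of 1 locus was not tested.

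The 8 adjacent members formed 4 pairs. The first pair was Unigene43392 and Unigene43393. Unigene43392 (2155 nt) had 293 stem counts, 49 leaf counts and 4 root counts, and Unigene43393 (1755 nt) had 126, 26 and 3. Their stem to leaf ratios were 3.39 (2.498 to 4.69) and 2.75 (1.79 to 4.37), and their leaf to root ratios 37.2 (13.6 to 142) and 26.3 (8.07 to 136). In all 4 pairs the counting intervals of the partners overlapped for stem to leaf, for leaf to root and for stem to root. Both partners were chosen by the same limits and had few root counts, so overlap was likely and nothing is read from it. Partners that share a locus would count 1 gene more than once among the 91.

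Membership depended on the scale. The scales tried were library totals, TMM factors, DESeq2 size factors, deposited TPM and sums without the top 50 or 200 unigenes, besides the one used. A change of scale moves all members nearly alike and by less than the steps that the choice required, so the order stem, leaf, root of all 91 on every scale was fixed by the choice. On library totals every stem to leaf ratio was higher by 0.46 on the log2 scale, and on deposited TPM by a median of 0.51, while leaf to root was lower by a median of 0.70. On these scales 60 and 47 of the 91 met the rule, together with 97 and 92 other unigenes. A ratio of TPM values given above therefore does not equal the ratio of scaled counts beside it. On all 7 scales together 39 unigenes met the rule.

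**Figure D5:**
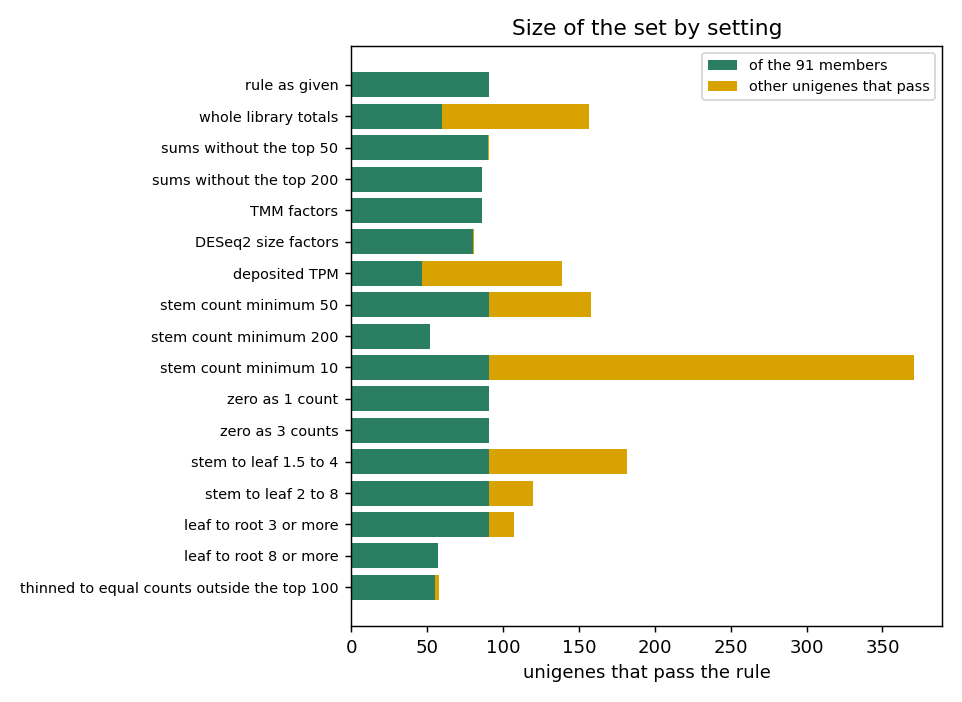
Bars count the unigenes (horizontal) that meet the rule under each setting (vertical), with the part that belongs to the 91 members in green and other unigenes in yellow. TMM factors keep 86 of the 91 and DESeq2 size factors 80, whereas library totals keep 60 and admit 97 others, and a stem count minimum of 10 gives 371 unigenes.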

How the data were processed

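Polyadenylated RNA was made into libraries with a strand-specific kit and read from both ends (101 bp on average), per the labels. The submitters' processing notes name Trimmomatic and RSEM. Assembler, settings and versions: not given in the sources used here. Each deposited table gives, by its header, a length, an effective length, an expected count and a TPM per unigene. All deposited expected counts were whole numbers and were used as they are. TPM was used as the authors deposited it. The merged table was not used.

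Counts were scaled on sums outside the 100 most counted unigenes. Ratios carry exact conditional binomial (Clopper-Pearson) 95% intervals, calculated with scipy 1.17.1 under Python 3.11.15 and tested on simulated data. Calls needed 10 counts in the pair of libraries. edgeR 4.0.16 and DESeq2 1.42.0 gave alternative scaling factors only, since 1 library per tissue allows no test. Reads copied from 1 molecule could not be told apart, so intervals and floors cover counting error only.

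The members, the comparison classes and the rules were chosen with earlier results of these data known. Unigenes are named, at most 2 for each ordering of the members, by stem count, stem TPM, lower bound of stem over root, root count, length and consecutive numbers, and on either side of each limit. The 3 members without root counts are given by their values alone.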

Additional observations from a re-analysis of the deposited data

How the results depend on the processing

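The number of members, the interval count, the shares and the length were recomputed under 16 alternatives. Median ratios, ratios of named unigenes and calls over all unigenes were recomputed under the 6 scales, both readings of low counts and the thinning. Of 91 recomputed main values, 58 stayed within 1.5 times (counts), within the exact interval of the share, or within the exact interval of the median over members. The 33 others moved, and the cause was not tested. Only the median ratios could have reversed, and the choice held these too far above 1 for these settings to reverse them. The number of members, 91, became 157 on library totals, 139 on deposited TPM, 158, 52 and 371 with stem minimums of 50, 200 and 10, 182 with a stem to leaf window of 1.5 to 4, 57 with leaf at least 8 times root, and 58 after thinning to equal counts. The 31 members with both intervals past the limits became 57 on totals, 50 on TPM, 78 with the window from 1.5, 49 with a window to 8, 15 with leaf at least 8 times root and 20 after thinning. The share of stem counts, 0.979%, was 1.59% on totals, 1.11% without the top 50, 0.704% without the top 200, 0.954% with TMM, 0.913% with DESeq2 and 1.44% on TPM. It was 1.09%, 0.857% and 1.20% with stem minimums of 50, 200 and 10, 1.91% and 1.25% with windows of 1.5 to 4 and 2 to 8, 1.05% and 0.732% with leaf at least 3 and 8 times root, and 0.911% after thinning. The leaf share, 0.264%, ran from 0.195% (leaf at least 8 times root) to 0.648% (window from 1.5), with 0.595% on totals and 0.561% on TPM, and the root share, 0.0214%, from 0.00850% to 0.0460% under the same pair of limits, with 0.0141% without the top 200 and 0.0415% on totals. The median length was 994 nt with a stem minimum of 10. Over the 91 fixed members, the median stem to leaf ratio was 3.52 on totals and 3.64 on TPM, where leaf to root was 7.08 and stem to root 25.3. Reading 0 as 1 count, or every count under 3 as 3 counts, changed no membership. Of 432 ratios of named unigenes, 397 stayed within their counting interval. That 0 reversed was nearly fixed in advance, because the named unigenes were members or stood at the limits of the choice. The calls over all unigenes stayed within 1.5 times in 24 of 27 cases, and stem over leaf beyond 2-fold became 1382 on totals and 1548 on TPM, from 601. Stem over root beyond 4-fold became 1480 after thinning, from 2560. Thinning was 1 draw, and 32 of the 36 members it lost fell under 100 stem counts. Low counts of the members in leaf and root limit the placing of single members. No paired analysis was possible because the 3 tissues have a single library apiece, and no replicate could be left out.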

Other observations

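A group of 6 short members was alike in several measures. It was picked out after its values were seen, so it is a description without a test. These 6 were 701 to 768 nt long and all stood among the 20 members most counted in stem. Their levels were 201 to 1092 TPM in stem, 50.4 to 308 TPM in leaf and 0.5 to 4.58 TPM in root. Their stem to leaf ratios lay between 2.29 and 2.88 and their leaf to root ratios between 68.4 and 164, on 2 to 18 root counts. They were the only members of 700 to 770 nt. No values of other unigenes of that length are set beside them, so none is read as a trait of these 6.

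The 20 members with leaf 64 or more times root had a median level of 118 TPM in stem, 35.5 TPM in leaf and 0.54 TPM in root. The classes below it showed no steady rise in stem, with medians of 29.0 TPM in the 34 members at 4 to below 8 times root, 32.6 TPM in the 25 at 8 to below 16 and 23.4 TPM in the 12 at 16 to below 64. Over all 91 members Spearman's rho of stem TPM and the leaf to root ratio was 0.18. Of the 19 members at 100 TPM or more in stem, 10 had leaf 64 or more times root and 12 were under 1000 nt. At the same count a shorter unigene has a higher TPM. The same counts were not made for the 493 unigenes at that level among all with at least 100 stem counts, so neither is read as a trait of the members. The share with leaf 64 or more times root was 22.0% of the members, 20.6% of the 1041 unigenes with at least 100 stem counts and leaf 4 times root, 43.5% of the class graded leaf, stem, root, 16.9% of the level class and 19.5% of the class with the steeper stem step. With root counts of 0 set at 3 counts these shares were 18.7%, 19.6%, 43.5%, 16.4% and 9.76% in the same order. The share of the members was near that of the 1041, which include the 91, under both readings. All these classes were chosen on ratios to root, so the shares depend on their definitions. In the class graded leaf, stem, root the lowest leaf to root ratio was 8.79, against 4.12 in the members, 4.02 in the level class and 4.05 in the class with the steeper stem step.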
